A study of Mus musculus with 60 samples.

Results

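Messenger RNA of 10 genes that mark the inhibitory interneurons of the cerebral cortex was followed across age and diet in the neocortex of male B6C3F1 hybrid mice. The genes were chosen by name: Gad1, Gad2, Slc32a1, Sst, Vip, Npy, Pvalb, Calb2, Cck and Cort. They are 10 of the 18193 genes that the array annotation names unambiguously, with 15 of its 45101 probe sets. The mice were young controls of 5 months and 3 groups of 30 months, named old control, old CR and old resveratrol. All were individually housed, the controls of both ages ate the AIN93M control diet, and from 14 months the old CR group ate a calorie restricted diet (40% by the sample labels, while the study's methods describe a smaller cut in calories from a control allowance already held below free feeding) and the old resveratrol group ate the control diet with resveratrol, a plant polyphenol, at 4.9 mg per kg bodyweight. Each group had 5 neocortex arrays (Affymetrix Mouse Genome 430 2.0), each of a separate animal, and the same number of heart and gastrocnemius muscle arrays. The design asks what changes between young and old controls, what each diet changes in old mice, and where the 2 diets differ.

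Interneurons are local neurons that release GABA, the main inhibitory transmitter of the brain. Gad1 and Gad2 encode the enzymes that make GABA from glutamate, and Slc32a1 encodes the transporter that loads it into synaptic vesicles. These 3 genes are shared by nearly all GABA neurons, those of the striatum included. The other members divide interneurons into classes. Sst, Cort, Npy, Vip and Cck encode secreted neuropeptides, and Pvalb and Calb2 encode calcium-binding proteins. Npy and Cck are not restricted to interneurons, since Cck is also made by many excitatory cells of the cortex. All of these values come from pieces of whole tissue, where fewer cells of a type and less RNA per cell cannot be told apart.

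Promoter windows of the 4 members that changed under CR are shown with that of Sst, which was not called in the test used here, to set the starts of genes that moved in opposite directions side by side. They were read from RefSeq (build GRCm38.p6), run 5′ to 3′ on the gene's strand and cover 250 bases before to 50 after the start. Capitals mark the cAMP response element TGACGTCA, its core TGACG and the TATA box TATAAA, on either strand, so that a core on the other strand reads CGTCA.
Vip, chr10:5638968-5639267, plus strand: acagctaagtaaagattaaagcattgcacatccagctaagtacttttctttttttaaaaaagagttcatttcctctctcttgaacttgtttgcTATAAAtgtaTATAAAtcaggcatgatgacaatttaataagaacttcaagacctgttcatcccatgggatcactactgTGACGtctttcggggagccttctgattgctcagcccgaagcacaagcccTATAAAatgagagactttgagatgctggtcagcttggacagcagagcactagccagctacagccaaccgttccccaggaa
Cort, chr4:149126714-149127013, minus strand: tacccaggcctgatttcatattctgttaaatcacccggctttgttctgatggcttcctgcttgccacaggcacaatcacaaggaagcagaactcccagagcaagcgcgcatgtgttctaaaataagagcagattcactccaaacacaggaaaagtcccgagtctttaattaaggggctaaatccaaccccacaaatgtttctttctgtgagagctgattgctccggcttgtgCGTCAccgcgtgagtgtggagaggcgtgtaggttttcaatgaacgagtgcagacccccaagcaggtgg
Slc32a1, chr2:158610508-158610807, plus strand: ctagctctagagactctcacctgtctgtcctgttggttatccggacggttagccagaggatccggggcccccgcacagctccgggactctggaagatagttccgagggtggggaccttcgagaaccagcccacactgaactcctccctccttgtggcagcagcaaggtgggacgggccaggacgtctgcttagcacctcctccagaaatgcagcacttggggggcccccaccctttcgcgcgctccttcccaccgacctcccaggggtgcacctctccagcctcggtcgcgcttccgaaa
Gad2, chr2:22622077-22622376, plus strand: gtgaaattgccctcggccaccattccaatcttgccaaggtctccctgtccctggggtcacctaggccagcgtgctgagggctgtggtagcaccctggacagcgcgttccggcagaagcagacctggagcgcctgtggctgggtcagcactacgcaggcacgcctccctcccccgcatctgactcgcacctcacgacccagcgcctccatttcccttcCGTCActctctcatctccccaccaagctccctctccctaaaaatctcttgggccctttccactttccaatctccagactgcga
Sst, chr16:23890795-23891094, minus strand: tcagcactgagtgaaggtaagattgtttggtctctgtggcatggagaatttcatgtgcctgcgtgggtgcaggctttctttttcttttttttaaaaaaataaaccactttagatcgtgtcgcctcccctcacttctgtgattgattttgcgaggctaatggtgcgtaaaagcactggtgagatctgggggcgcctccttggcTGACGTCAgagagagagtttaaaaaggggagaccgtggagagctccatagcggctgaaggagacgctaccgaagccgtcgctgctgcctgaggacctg
Of the 9 members with a window, Sst held the whole element (48 to 41 bases before the start), which 1.79% of 32851 RefSeq promoter windows hold. The core stood in Gad2, Sst (within its whole element), Vip, Cck and Cort, against 20.8% of all windows. The TATA box letters occurred 3 times in Vip and 1 time in Gad1, and in 13.6% of all windows. The letters searched did not separate members that rose under CR from those that fell, since Vip and Cort rose and Gad2 fell and each of them held a core.

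The members were neocortical in these data. Signals are the linear values that the authors computed and scaled for each array, and a probe set was compared only with itself. Means over 20 arrays were 13356 for Gad1 in neocortex against 58.6 in heart and 22.1 in gastrocnemius, and 6175 for Sst against 60.8 and 74.7. Cort was the dimmest of the probe sets used, at 116.8 in neocortex against 41.3 in heart and 28.2 in gastrocnemius. Pvalb was the exception, because fast muscle fibres also use this calcium buffer. Its mean was 4323 in neocortex, 68.9 in heart and 54024 in gastrocnemius (36946 to 74800).

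**Figure D1:**
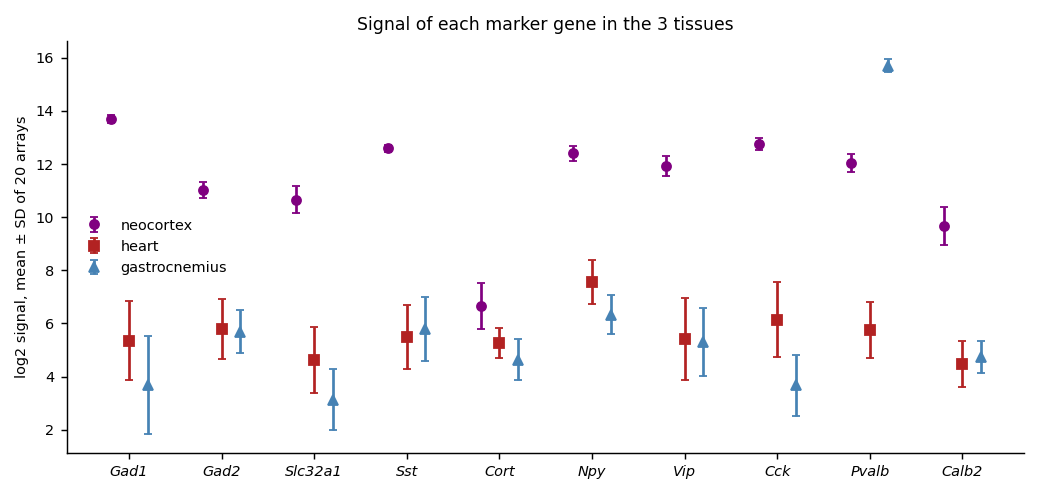
Log2 signal of the probe set used for each of the 10 marker genes in neocortex (circles), heart (squares) and gastrocnemius (triangles); points are means and bars the SD of 20 arrays. All but Pvalb are highest in neocortex, where Cort lies nearest to its level in the other tissues.

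All 10 genes passed the filter on low signal, as did 12 of their 15 probe sets. The 3 that did not are further probe sets of Slc32a1 with mean neocortex signals of 4.48 to 29.4, against 1711 for the probe set that represents the gene. Log2 signals of the 4 groups were fitted together with limma, over 13057 genes for each comparison, and a gene is said to have risen or fallen at a Benjamini-Hochberg adjusted p under 0.05. Differences are on the log2 scale with the standard error (SE) of the fit, all tests are two-sided, and every group has 5 arrays.

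Some arrays stood apart in ways that bear on GABA genes. Of 11 measured markers of striatal neurons, which also make GABA, 9 fell under CR (median -1.03) and 3 under resveratrol (median -0.70). The shares of all genes called were 30.9% and 26.5%, so that 3 of 11 under resveratrol is near the background. No striatal marker passed with age or between the diets by limma, where 1.47% and 9.57% of all genes did. The summed signal of these markers ran from 26008 to 37397 in old controls, from 10537 to 35051 under CR and from 10142 to 34141 under resveratrol. Old CR replicate 2 and old resveratrol replicate 3 had the lowest sums. Drd1, a dopamine receptor gene among these markers, averaged 1599.9 in old controls. Whether such signals came from striatal tissue in samples labelled as neocortex was not tested. The thalamic marker sum was 9964 in old control replicate 4 and 8588 in old resveratrol replicate 5, against 1949 to 5946 in the other 18 arrays. For beta-actin, the log2 signal at the 3′ end minus that at the 5′ end, a sign of RNA quality, was 0.55 ± 0.06 (SD, n = 5) in old controls, 0.71 ± 0.04 with CR and 0.89 ± 0.09 with resveratrol, and no diet array lay below the highest old control, while that of Gapdh was -0.40, -0.40 and -0.37. The first principal component, with 26.5% of the variance, separated all 10 control arrays from all 10 diet arrays. The part of RNA quality in the results was not tested, and the days on which arrays were processed were not used here.

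**Figure D2:**
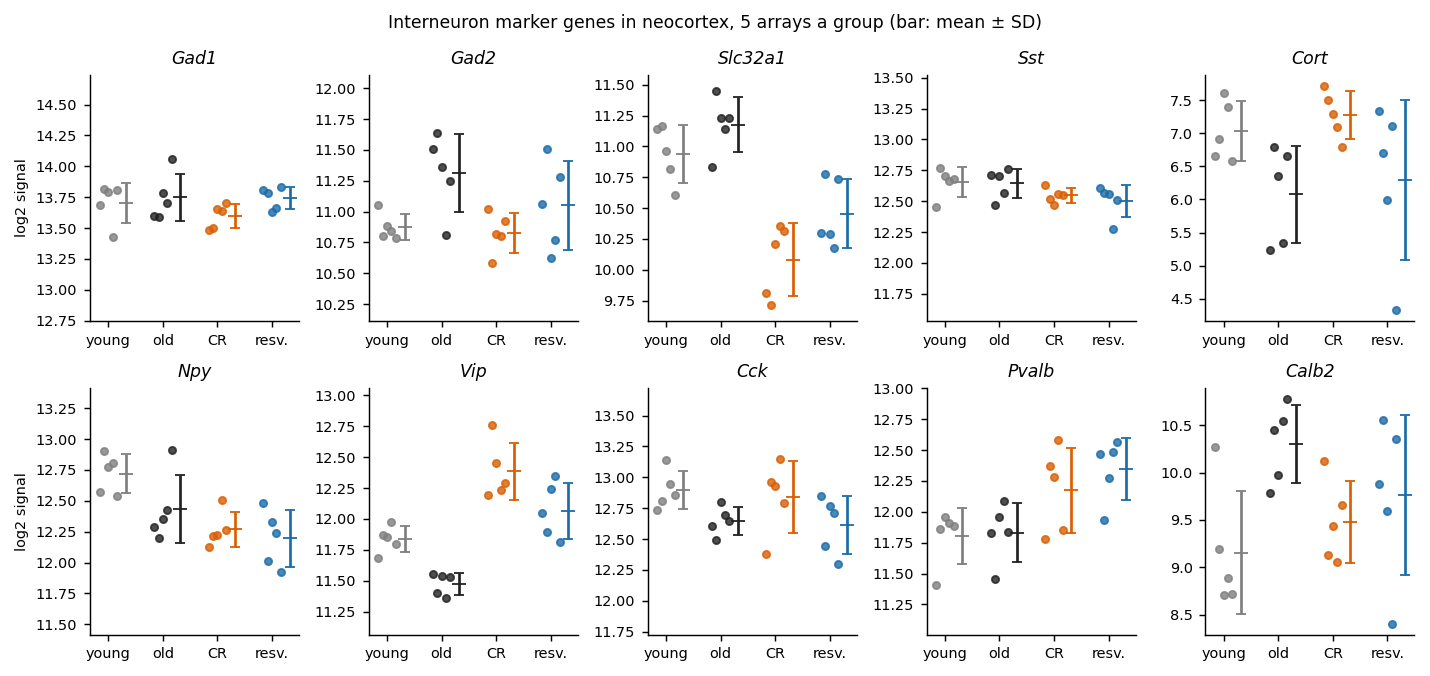
Log2 signal of the 10 marker genes on each neocortex array, with a panel for each gene; points are mice, and the bar beside them is the mean ± SD of 5 arrays of young control, old control, old CR (CR) and old resveratrol (resv.) mice. The Vip values of both diet groups lie above those of all old controls and the Slc32a1 values below them, while Sst stays within a narrow band.

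With age, none of the 10 members passed the test by limma, where 1.47% of all genes did (192 of 13057), although 6 had an unadjusted p under 0.05, against 15.1% of all genes. Calb2 and Vip came closest. Calb2, which encodes calretinin, read 1234, 586, 417, 472 and 422 in the young controls and 882, 1398, 1010.1, 1496 and 1756 in the old controls. Young control replicate 1, at 1234, lay inside the old range and the other 4 young mice below it. That array had the highest thalamic marker sum of the young controls (4198). Old control replicates 4 and 5, the highest in Calb2, had sums of 9964 and 5613. Under CR the highest thalamic sum (3516, replicate 4) went with the lowest Calb2. Whether thalamic content bears on Calb2 was not tested. The Calb2 difference was 1.15 (SE 0.33, adjusted p = 0.0754 by limma), a 2.22-fold higher level in old mice. Without young control replicate 1 it was 1.43 (adjusted p = 0.0121) and passed the test.

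Vip, the vasoactive intestinal peptide gene, read 3294, 3736, 3709, 4021 and 3565 in young controls and 3005, 2697, 2966, 2635 and 2958 in old controls. Every old control lay below every young control, as was so for 1.10% of all genes, and the difference was -0.36 (SE 0.10, adjusted p = 0.0754). It passed the test without young control replicate 1 (-0.40, adjusted p = 0.0491). With only the young and old controls in the fit, Vip and Calb2 both passed it (adjusted p = 0.0248 and 0.0415).

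The other members differed by less or more variably with age. Gad2 was 0.44 (SE 0.14, adjusted p = 0.137) higher in old controls, with group means of 1883 ± 146 and 2593 ± 529 (SD, n = 5). Npy, Cck and Cort had differences of -0.28, -0.25 and -0.95 at adjusted p values of 0.241, 0.319 and 0.285, and the age groups of each overlapped. For Sst the interval of the difference was narrow (95% interval -0.16 to 0.14), and for Gad1 it was -0.13 to 0.22. The median difference of the 10 members was 0.01, against 0.02 for all genes.

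Under CR, 4 of the 10 members passed the test. Vip and Cort rose, and Slc32a1 and Gad2 fell. The share of all genes that passed was 30.9% (13.3% up and 17.7% down), so that 4 of 10 is near the background. The median of the 10 members was -0.12, against -0.03 for all genes.

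Vip had the smallest p of the members under both diets. Its old CR arrays read 4686, 6939.8, 5593, 4806 and 5012, and its old resveratrol arrays 4227, 3804, 4839.7, 5216 and 3595. Each of these 10 arrays was above each of the old controls, the highest of which read 3005, and old CR replicate 2 was the highest of all. Vip rose 1.88-fold under CR, by 0.91 (SE 0.10, adjusted p = 1.2e-06), and 1.51-fold under resveratrol, by 0.59 (SE 0.10, adjusted p = 0.000161). Groups that did not overlap, with the diet higher, were found in 8.36% of all genes under CR and 8.77% under resveratrol. Against the young controls, a comparison that mixes age and diet and was added after the data were seen, Vip was 0.55 (adjusted p = 0.000217) higher under CR and 0.23 (adjusted p = 0.0841) higher under resveratrol.

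Slc32a1 moved the other way. The vesicular GABA transporter gene read 2257, 2295, 1996, 1806 and 1555 in young controls and 1828, 2795, 2396, 2259.6 and 2398 in old controls. It read 901, 841, 1186, 1306 and 1274 under CR and 1259.8, 1755, 1249.6, 1158 and 1705 under resveratrol. Neither diet group overlapped with the old controls, as was so with the diet lower for 11.7% of all genes under CR and 9.85% under resveratrol. All CR arrays also lay below all young controls, for which the share of all genes was not counted. The level fell to 0.468 of the old control level under CR (-1.09, SE 0.15, adjusted p = 7.88e-06) and to 0.607 of it under resveratrol (-0.72, SE 0.15, adjusted p = 0.000718). Against the young controls the Slc32a1 difference was -0.86 (adjusted p = 8.01e-05) under CR and -0.48 (adjusted p = 0.0124) under resveratrol, where 36.8% and 34.4% of all genes passed. When the log2 values of all 4 Slc32a1 probe sets, 3 of them dim, were averaged, the differences were -0.23 under CR (adjusted p = 0.656) and -0.62 under resveratrol (adjusted p = 0.191), and the test was no longer passed.

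Gad2 and Gad1 encode the GABA-synthesising enzymes, and the difference between their responses was not tested. Gad2 read 2916, 3189, 2634, 1799 and 2427 in old controls, 2074, 1533, 1807, 1784 and 1945 under CR and 2140.1, 2910.4, 1580.2, 1748 and 2494 under resveratrol. The lowest old control, replicate 4, lay inside the CR range and the other 4 above it. Gad2 fell by 0.48 under CR (SE 0.14, adjusted p = 0.0131) and had a difference of -0.26 (SE 0.14, adjusted p = 0.19) under resveratrol, which became -0.39 (adjusted p = 0.039) without old control replicate 4. Old CR and young control means were close, at 1828 ± 202 and 1883 ± 146 (SD, n = 5), with a difference of -0.05 (adjusted p = 0.836). The second Gad2 probe set, fitted among 23768 probe sets of which 27.8% passed, did not pass under CR (-0.23, SE 0.21, adjusted p = 0.453).

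Gad1 read 12390.4, 12332, 14096, 13366 and 17085 in old controls, 11474, 11581, 12899, 12764 and 13311 under CR and 14368, 14117, 12711, 12984 and 14558 under resveratrol. The groups overlapped, and the difference was -0.15 under CR (95% interval -0.32 to 0.02, adjusted p = 0.18) and -0.00266 under resveratrol (95% interval -0.18 to 0.17, adjusted p = 0.988). With quantile normalization the CR difference was -0.24 and passed the test (adjusted p = 0.0281). The second Gad1 probe set fell under resveratrol (-0.39, SE 0.13, adjusted p = 0.03, with 25.2% of probe sets called) from a mean of 5084 ± 740.5 to 3928 ± 894 (SD, n = 5), which the first one did not. RefSeq places another gene over part of each of these loci (Gad1os at Gad1, Mir3967 at Gad2, Gm14204 at Slc32a1) and over Cck (Gm38661).

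**Figure D3:**
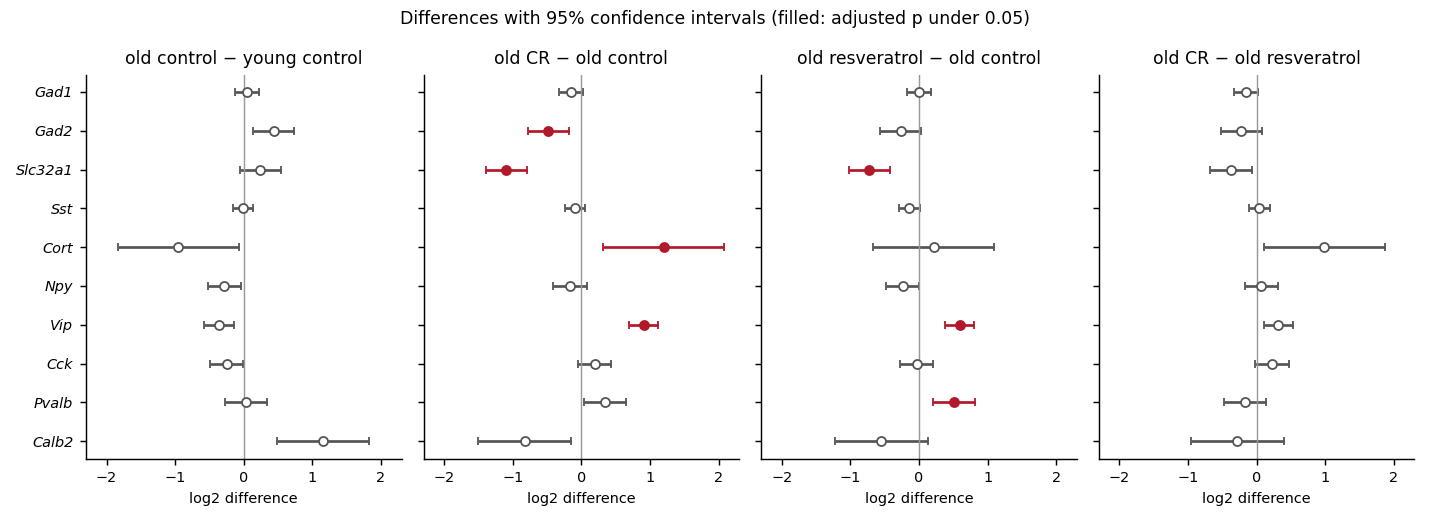
Log2 difference of each marker gene, with its 95% confidence interval from the fit, between old and young controls, under each diet against old controls, and between the diets; filled points have an adjusted p under 0.05 over 13057 genes. Vip and Slc32a1 are filled and on opposite sides of 0 under both diets, and no gene is filled with age or between the diets.

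The striatal markers moved beside the GABA genes. With the mean log2 level of these markers as a covariate, chosen after the data were seen, the CR differences of Gad2 and Cort were -0.21 (adjusted p = 0.367) and 1.14 (adjusted p = 0.134) and no longer passed the test. Slc32a1 remained lower under CR (-0.87, adjusted p = 0.000618) and resveratrol (-0.59, adjusted p = 0.00414), and Vip higher (0.70, adjusted p = 7.44e-05, and 0.47, adjusted p = 0.000659). Without the 2 arrays lowest in striatal markers, the CR differences were -1.003 for Slc32a1 (adjusted p = 4.46e-05), -0.42 for Gad2 (adjusted p = 0.0274) and 0.82 for Vip (adjusted p = 2.69e-06), and Cort no longer passed (adjusted p = 0.0742). Within groups, deviations from the group mean over the 20 arrays related to the striatal level with a Pearson r of 0.561 for Gad2 (permutation p = 0.0174, adjusted p = 0.0869 over 10 members, Spearman rho 0.599, permutation p = 0.00855, adjusted p = 0.0473) and -0.626 for Vip (permutation p = 0.0376, adjusted p = 0.125, rho -0.626, permutation p = 0.00946, adjusted p = 0.0473). Without the 2 arrays farthest from the median striatal level, r was 0.313 and -0.425, so both relations leaned on those arrays. Gad1 had the lowest Pearson p, with an r of 0.429 (permutation p = 0.00618, adjusted p = 0.0618, Spearman rho 0.415, permutation p = 0.0525, adjusted p = 0.148), and an r of 0.371 without those arrays. None of the 10 members passed by Pearson r, with 3 at an unadjusted p under 0.05.

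**Figure D4:**
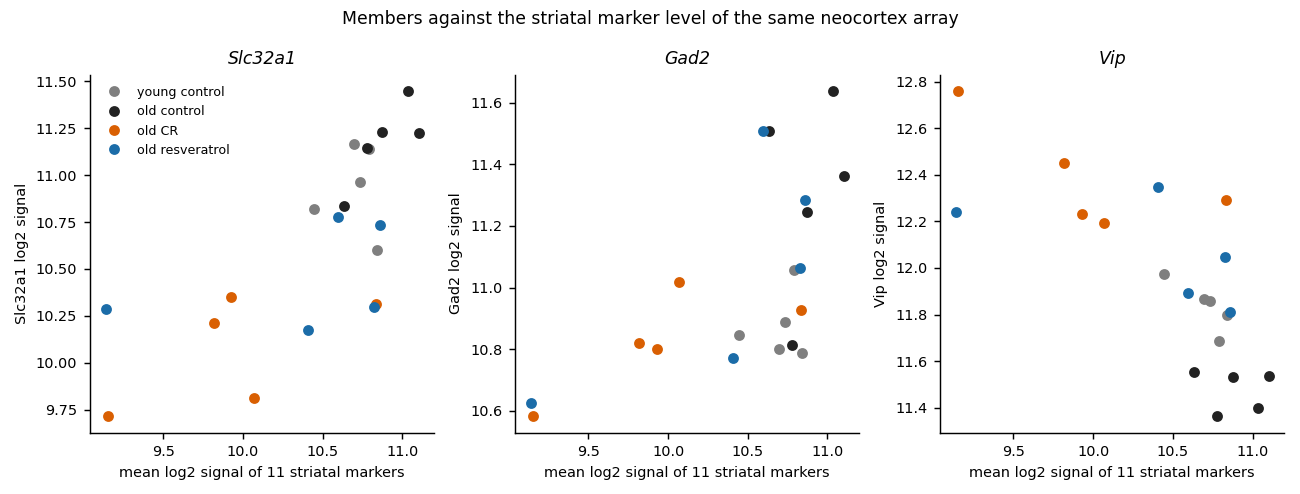
Log2 signal of Slc32a1, Gad2 and Vip on each neocortex array (y axes) against the mean log2 signal of 11 striatal markers on the same array (x axes), coloured by group. The Vip values of the 10 diet arrays lie above those of the old controls and the Slc32a1 values below them, also for old CR replicate 5 and old resveratrol replicates 1 and 5, whose striatal level of 10.8 or above lies within the old control range.

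Cort, the cortistatin gene of a subset of Sst cells, was measured near the floor of the array. It read 37.7, 111, 81.7, 40.8 and 101 in old controls and 211, 181, 157, 136 and 111 under CR. One old control, replicate 2, just overlapped with the CR range at 110.6 against a lowest CR value of 110.58. Cort rose under CR (1.201, SE 0.43, adjusted p = 0.0345), but the call was lost when any of 5 of the 10 arrays was left out (old controls 1 and 4 and old CR 1, 2 and 3, adjusted p = 0.0586 to 0.0965) and without a filter on low signal (adjusted p = 0.0512). Under resveratrol its arrays ran from 20.04 to 162 and the difference was 0.22 (SE 0.43, adjusted p = 0.761). Sst, the partner peptide, ran from 4969 to 6983 over the 20 arrays, with differences of -0.10 under CR (95% interval -0.25 to 0.05) and -0.14 under resveratrol (95% interval -0.29 to 0.01). With quantile normalization Sst passed the test as lower under both diets, by -0.18 (adjusted p = 0.0418) and -0.19 (adjusted p = 0.0334).

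Pvalb, the parvalbumin gene of fast-spiking interneurons, rose under resveratrol. It read 3639, 2802, 3972, 4357 and 3651 in old controls and 5676, 3913, 4963, 5743 and 6065 under resveratrol. One resveratrol array, replicate 2, lay among the old controls and the other 4 above all of them. The rise was 0.52 (SE 0.15, adjusted p = 0.0117), 1.43-fold, and it was the third member to pass under resveratrol with Vip and Slc32a1, that is 2 up and 1 down of 10, where 26.5% of all genes passed (12.5% up and 14.0% down), again near the background. Under CR it read 3518, 5309, 4968, 6123 and 3706, with 3 arrays above the old controls and the other two among them, and the difference was 0.34 (SE 0.15, adjusted p = 0.0829). It passed the test without old CR replicate 1 (adjusted p = 0.0273) or 5 (adjusted p = 0.0423). The median of the 10 members under resveratrol was -0.09, against -0.00311 for all genes.

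Calb2, Npy and Cck did not pass the test under either diet. Calb2 read 1116, 562, 691, 532 and 809 under CR and 945, 1502, 774, 339 and 1312 under resveratrol, and the widest spread among the mice of the resveratrol group was that of Cort, followed by Calb2 (SD 1.21 and 0.85 on the log2 scale). The Calb2 difference was -0.83 (SE 0.33, adjusted p = 0.0578) under CR and -0.55 (SE 0.33, adjusted p = 0.23) under resveratrol. The CR difference of Calb2 passed with only the 2 groups fitted (adjusted p = 0.00718), with the 60th percentile filter (0.0496), and without old control replicate 1 (0.0405) or old CR replicate 1 (0.0312). Npy, the neuropeptide Y gene, averaged 6773 ± 731 in the young and 5627 ± 1194 in the old control group, while the means were 4953 ± 514 with CR and 4744 ± 753 with resveratrol (SD, n = 5). Its differences from old controls were -0.17 (95% interval -0.41 to 0.08) and -0.24 (95% interval -0.48 to 0.01), and old control replicate 5, at 7697, was above all diet arrays. Against the young controls Npy passed the test in both diet groups (-0.45, adjusted p = 0.00446 under CR and -0.52, adjusted p = 0.00144 under resveratrol), where 36.8% and 34.4% of all genes did. Cck, the cholecystokinin gene, ran from 5040.3 to 9094 over the 20 arrays and had differences of 0.19 (95% interval -0.05 to 0.44) and -0.03 (95% interval -0.28 to 0.21). Without old CR replicate 1 the Cck difference under CR was 0.31 (adjusted p = 0.0271).

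Between the diets, none of the members passed the test by limma, where 9.57% of all genes did, and 3 had an unadjusted p under 0.05 (24.9% of all genes). Vip was 0.32 higher under CR (SE 0.10, adjusted p = 0.0512), and passed at a stricter filter (adjusted p = 0.0427) and when any of 4 single diet arrays was left out (old CR 1 or 4, old resveratrol 3 or 4, adjusted p = 0.0284 to 0.0468). The difference was -0.37 for Slc32a1 (95% interval -0.67 to -0.07, adjusted p = 0.106) and 0.99 for Cort (95% interval 0.11 to 1.87, adjusted p = 0.148). Both diets were compared with the same 5 old controls.

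Members also varied between mice of a group. Of 45 pairs of members, none passed the adjusted permutation test by Pearson r or Spearman rho, while 10 and 11 had an unadjusted p under 0.05. The pair with the smallest p was Vip and Calb2, which ran opposite to each other (r = -0.6845, permutation p = 0.00184, adjusted p = 0.0828, rho -0.657, permutation p = 0.00334, adjusted p = 0.103, and r = -0.614 without the 2 arrays farthest from the median of Vip). The largest positive r was that of Pvalb and Cck (r = 0.642, permutation p = 0.00806, adjusted p = 0.0833, rho 0.62, permutation p = 0.0118, adjusted p = 0.129, and r = 0.602 without 2 arrays). Gad1 and Gad2 hardly varied together (r = 0.0478, permutation p = 0.86, rho -0.0587).

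By the same measure, the genes most like each member among all genes tested were listed as a description. The 20 arrays differed in their striatal and thalamic marker sums, and the part of dissection in these correlations was not tested. Calb2 was followed most closely by the serotonin receptor gene Htr2c (r = 0.908), Cacng5 (0.906) and Col25a1 (0.9055). Pvalb was followed by the sodium-calcium exchanger gene Slc24a2 (0.868), the synaptic vesicle gene Vamp1 (0.859) and the myosin gene Myh3 (0.858), Npy by Nol10 (0.877) and Cck by Wwox (0.893). For Vip the nearest gene was the tubulin ligase gene Ttl (0.871), for Slc32a1 Osbpl9 (0.808) and for Gad2 Macrod2 (0.843), and the likeness was weakest for Gad1 (Gm9222, 0.769).

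Of 27 other measured genes of cortical interneurons, none changed with age by limma, where 1.47% of all genes did. Under CR, 3 rose and 5 fell (median -0.19), beside 30.9% of all genes called, and under resveratrol 2 rose and 2 fell (median -0.01), beside 26.5%. Under CR, Dlx5, a homeobox gene of the interneuron lineage, fell from a mean of 394 to 198 (-0.997, SE 0.21, adjusted p = 0.000744), and Prox1, a homeobox gene of interneurons from the caudal ganglionic eminence, from 85.6 to 48.2 (-0.82, SE 0.24, adjusted p = 0.0114). Prox1 was dim. Its means under CR and resveratrol (48.2 and 56.8) lay below the filter level of 62.7, which it passed only through the control groups, so its call is of limited weight. The serotonin receptor gene Htr3a rose from 179 to 288 (0.68, SE 0.13, adjusted p = 0.000325). Htr3a was 182 under resveratrol and was higher under CR than under resveratrol (0.67, adjusted p = 0.00323). Crh, the corticotropin-releasing hormone gene, rose by 0.54 under CR (adjusted p = 0.00387) and by 0.82 under resveratrol (adjusted p = 0.000111). Adarb2 fell under both (-0.52, adjusted p = 0.00771 and -0.46, adjusted p = 0.0181), and Tac2 fell under resveratrol (-0.54, adjusted p = 0.0241) and had a difference of -0.19 (adjusted p = 0.433) under CR. Between the diets 1 of the 27 was higher and 2 lower under CR, beside 9.57% of all genes called. These were Htr3a and, lower, Syt2 (-0.62, adjusted p = 0.0308) and the cannabinoid receptor gene Cnr1 (-0.31, adjusted p = 0.0182).

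**Figure D5:**
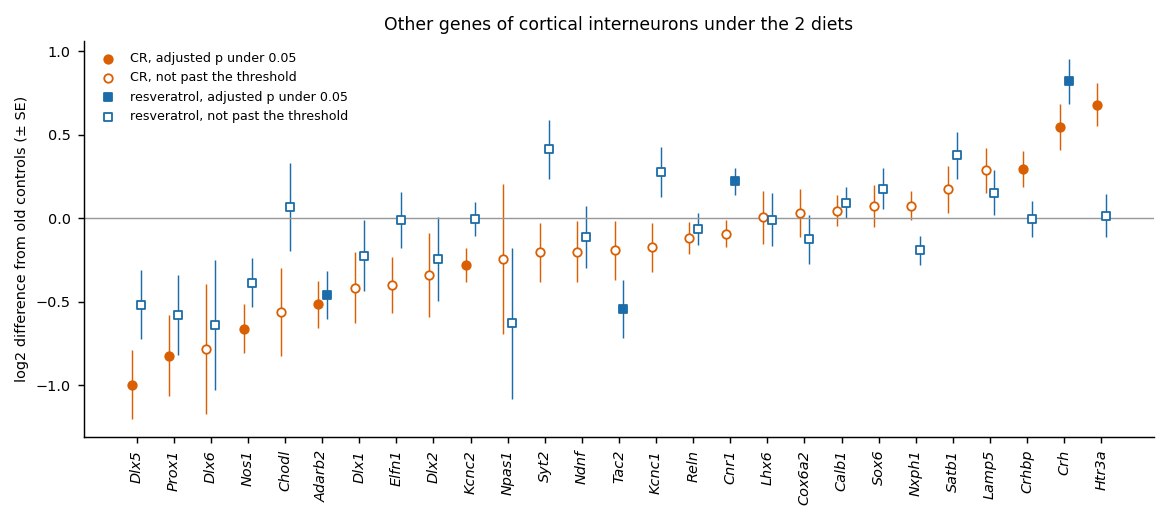
Log2 differences from old controls (± SE) of 27 further genes of cortical interneurons under CR (circles) and resveratrol (squares), ordered by the CR difference; filled symbols have an adjusted p under 0.05. The CR falls lead from Dlx5 and the dim Prox1 on the left, and Htr3a on the right is filled for CR only.

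GABA is taken up and rebuilt through glutamine by transporters and enzymes of neurons and astrocytes. Of 9 measured genes of this cycle none changed with age, while under CR 1 rose and 5 fell (median -0.16). Under resveratrol 1 rose and 2 fell (median 0.09), and 2 were lower under CR than under resveratrol. The shares of all genes called were 1.47% with age, 30.9% under CR, 26.5% under resveratrol and 9.57% between the diets. The GABA transporter gene Slc6a11 fell by 1.30 under CR (SE 0.25, adjusted p = 0.000333) and by 0.69 under resveratrol (SE 0.25, adjusted p = 0.0393). The glutamine transporter genes Slc38a5 and Slc38a3 fell by 1.06 and 0.69 under CR (adjusted p = 0.00226 and 0.000124). Slc38a3 also fell under resveratrol (-0.50, adjusted p = 0.00324), where the Slc38a5 difference was 0.38 (adjusted p = 0.271). Slc38a5 was dim, with a CR mean of 65.8, close to the filter level of 62.7. Glul, the glutamine synthetase gene of astrocytes, rose under both diets by 0.25 and 0.33 (adjusted p = 0.00457 and 0.000489).

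Of 8 measured receptors for the peptides of these cells, Sstr2 fell under CR (-0.58, adjusted p = 0.00576), Npy5r rose under resveratrol (0.57, adjusted p = 0.00847), and none passed with age or between the diets. Of 11 measured genes that process peptides or build their granules, none changed with age and 2 rose and 2 fell under CR (median 0.13). Under resveratrol 2 of them fell (median 0.04), and 1 was higher under CR than under resveratrol. Beside both lists, the shares of all genes called were 1.47% with age, 30.9% under CR, 26.5% under resveratrol and 9.57% between the diets. Pcsk1n, which encodes an inhibitor of a prohormone convertase, fell from a mean of 8665 to 4600.1 under CR (-0.92, SE 0.09, adjusted p = 2.44e-07) and to 4484 under resveratrol (-0.96, SE 0.09, adjusted p = 2.04e-07). The chromogranin gene Chga fell in both (-0.45, adjusted p = 0.000565 and -0.51, adjusted p = 0.000183), and Scg5 rose under CR (0.36, adjusted p = 0.000401).

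Genes induced by neuronal activity were measured as well. Of 12 measured, 1 rose and 9 fell under CR (median -0.96), 3 fell under resveratrol (median -0.45) and 1 fell with age (median -0.38). The shares of all genes called were 30.9%, 26.5% and 1.47%, so that 3 of 12 under resveratrol is near the background. Arc fell by 1.75 under CR (adjusted p = 0.00136), while the differences of Junb and Fos were -1.46 (adjusted p = 6.79e-06) and -1.25 (adjusted p = 0.00871). The summed signal of these genes ran from 11333 to 33583 in old controls, where replicate 4 was the lowest, from 9386 to 13992 under CR and from 10738 to 22694 under resveratrol. Their part in the results of the interneuron genes was not tested.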

How the data were processed

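Total RNA of heart, gastrocnemius and neocortex was hybridized to 60 Affymetrix arrays, 20 of them from neocortex. The authors turned the probe intensities into 1 linear signal intensity for each of 45101 probe sets with GCOS 1.2 (named in the submitters' processing notes), and the deposited signals have a 2% trimmed mean of 500 on every array. Settings of that summary are not given in the sources used here, and the number of arrays limits the precision. Here signals under 1 were set to 1 and taken to log2. The gene tests omitted 64 controls and the probe sets with several symbols (932) or none (9160). Where a gene had several probe sets, the one brightest over the 60 arrays stood for it, and a gene entered the test if that signal averaged at least 62.7 in neocortex (the 40th percentile). A single limma 3.58.1 model (lmFit, eBayes with trend; R 4.3.3) held the 4 groups, after a test on simulated data, with Benjamini-Hochberg adjustment over 13057 genes.

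Correlations used deviations from group means, with 100000 permutations within groups, in Python 3.11.15. The members and the 13 context lists, of whose 145 entries 134 matched a symbol and 130 were tested, were chosen with earlier results of these data known. Named were all members, some of the called genes of the lists, and the genes most like each member. Some called genes with large differences went unnamed in the results. Under CR these include Nrgn (-0.81, adjusted p = 0.000613 by limma) and Gfap (-1.84, adjusted p = 5.5e-07). The alternatives tried were other normalization, offset, filters, tests (the methods' t-test included), probe set rules, a replicate block and leaving out each array.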

Additional observations from a re-analysis of the deposited data

Results flagged for a closer look

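Dixon's test on the log2 signals of the 10 members in 4 neocortex groups of 5 arrays, 40 groups in all, found 2 arrays far from the rest of their group, and chance alone flags about 1 group in 20. Old resveratrol replicate 4 had the lowest Sst, at 12.28 on the log2 scale (signal 4969), where the other 4 arrays lay between 12.51 and 12.60, a gap of 0.716 of the range of the group. Young control replicate 1 had the lowest Pvalb of its group, at 11.41 (signal 2716) against 11.86 to 11.96, a gap of 0.823 of the range. The critical value for 5 arrays is 0.71.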

How the results depend on the processing

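The calls of Vip under both diets and of Pvalb under resveratrol were kept in all 12 alternatives set out at the start and in each of the fits that left out 1 of the 10 arrays compared. Those of Slc32a1 were kept in all but the mean of all its probe sets. The CR fall of Gad2 was lost in 3 of 12, namely that mean (adjusted p = 0.141) and the methods' t-test on log2 (0.0583) and unlogged signal (0.0594), and the CR rise of Cort in 2 of 11, without a filter and in eBayes without trend (0.0504). No difference of a member that passed the test changed sign in these alternatives. With averaged probe sets the uncalled differences between the diets of Slc32a1 and Gad1 turned from -0.37 to 0.39 and from -0.15 to 0.02.

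The number of members changed with age was 2 with only the 2 groups fitted and 1 (Vip) without the 2 arrays lowest in striatal markers. Between the diets it was 1 (Vip) with an offset of 50 and at the 60th percentile filter. Under CR 2 members passed when probe sets of a gene were averaged, and 2 with the striatal covariate. By Spearman rho 2 of 10 members related to the striatal level. Of all genes, 30 changed with age in the methods' t-test on log2 signal, 27 on unlogged signal and 104 with averaged probe sets, against 192. Between the diets 452 and 476 did in the t-tests, 825 with only the 2 groups, 511 with averaged probe sets and 511 without the 2 arrays, against 1250. With every probe set on its own, the counts are of 23768 probe sets and not of genes. They were 6602 under CR (27.8%), 5994 under resveratrol (25.2%) and 2054 between the diets (8.64%), against 30.9%, 26.5% and 9.57% of genes. The share of rises among calls was 35.4% with the mean of probe sets against 47.1% under resveratrol, and 51.3% against 38.7% between the diets, and 51.6% under resveratrol with quantile normalization.

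Leaving out 1 array at a time gave 0 to 2 members changed with age, 3 to 6 under CR, 3 to 4 under resveratrol and 0 to 2 between the diets, and 80 to 339, 3424 to 3959, 2991 to 3413 and 694 to 1143 genes in the same order. The extremes with age came without old control replicate 4 and young control replicate 1. Same-numbered arrays of different groups varied together little (30 pairs, r from -0.162 to 0.158, 3 over 0.1). The mice were treated as unpaired, although this check cannot exclude a shared order behind the numbers. With the replicate block 0, 5, 3 and 0 members and 221, 4041, 3490 and 1245 genes changed, and Calb2 passed under CR (adjusted p = 0.0433).

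Cort, at a signal near 100, Prox1, Slc38a5 and the 3 dim Slc32a1 probe sets are limited by signal over background.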

Other observations

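Markers of other cell types were measured in the same arrays. Beside the counts below, 1.47% of all genes were called with age, 30.9% under CR, 26.5% under resveratrol and 9.57% between the diets. Lists this short cannot tell a count near those shares from the background. Of 10 genes of excitatory cortical neurons, 1 fell with age, 1 rose and 2 fell under CR (median -0.09), and 2 rose and 4 fell under resveratrol (median -0.25). The vesicular glutamate transporter gene Slc17a7 fell by 0.95 under CR (adjusted p = 0.000231 by limma) and by 0.95 under resveratrol (adjusted p = 0.000273), while Neurod6 rose by 0.58 and 0.64 (adjusted p = 0.00134 and 0.000586). Of 8 astrocyte genes, 1 rose with age, 1 rose and 3 fell under CR and 2 rose and 1 fell under resveratrol. Of 8 microglial genes, 3 rose with age, 4 fell under CR, 4 rose under resveratrol and 5 were lower under CR than under resveratrol. Of 6 thalamic genes, 1 fell under CR. Of 7 oligodendrocyte genes 1 fell under CR, of 7 endothelial genes 1 rose and 1 fell under CR and 2 rose under resveratrol, and of 6 choroid plexus genes none passed in any comparison by limma. Besides the microglial genes, 3 astrocyte, 2 endothelial, 1 oligodendrocyte and 1 thalamic gene were lower under CR than under resveratrol. Of the excitatory genes, 1 was higher and 1 lower.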
